A study of Mus musculus with 20 samples.

Results

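Endothelial cells that line the small vessels of muscle make messengers that call in or sustain white blood cells, and the 9 genes described here code for such messengers: the chemokines Ccl2, Ccl7, Cxcl1, Cxcl2, Cxcl10 and Cx3cl1, the cytokines Il6 and Lif, and the colony-stimulating factor Csf1. They were chosen by name from 42374 genes, and all 9 were found in the tables. RNA was sequenced from cells sorted as CD31-positive and CD45-negative out of mouse muscle, either the soleus, which is an oxidative, slow-twitch muscle, or the extensor digitorum longus (EDL), a glycolytic, fast-twitch muscle. The mice were C57BL/6N and either wild type or carried an Atf4 deletion that the labels call specific to endothelial cells (Atf4 ECKO). Mice of both genotypes received tamoxifen at an age of 8 to 10 weeks, at 1 mg a day over 5 days, then at least 7 days of rest, and littermates that lacked Cre served as the wild type. The design gave 4 groups of 5 libraries each, named oxidative or glycolytic wild type and oxidative or glycolytic Atf4 ECKO below. The sources used here name neither the promoter that drives Cre nor how many animals stand behind a library. The p-values therefore reflect variation among libraries, and part or all of it may be technical.

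A chemokine is a small secreted protein that binds a receptor on a white blood cell and guides it towards the source. CCL2 and CCL7 draw monocytes through the receptor CCR2. CXCL1 and CXCL2 draw neutrophils through CXCR2, CXCL10 is made in response to interferon and draws T cells through CXCR3, and CX3CL1 (fractalkine) stands on the endothelial surface until the proteases ADAM10 or ADAM17 release it. IL-6 and LIF signal through a shared receptor chain, gp130 (gene Il6st), to the transcription factor STAT3, and CSF1 keeps macrophages alive through CSF1R. Many of these genes are switched on by the transcription factor NF-kB, and their RNAs are short-lived because proteins such as tristetraprolin (gene Zfp36) mark them for decay. ATF4 is the transcription factor of the integrated stress response, known for driving amino acid synthesis and uptake.

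Cxcl1 and Cxcl2 lie 10.756 kb apart on mouse chromosome 5 (Cxcl1 at chr5:90891241-90893115, Cxcl2 at chr5:90903871-90905938, both on the plus strand of GRCm38), and Ccl2 and Ccl7 lie 8.259 kb apart on chromosome 11 (chr11:82035571-82037453 and chr11:82045712-82047525, plus strand). Chromosome 5 also holds Cxcl10 (chr5:92346638-92348889, minus strand) and Il6 (chr5:30013114-30019981, plus strand). Lif lies at chr11:4257557-4272514 (plus), Csf1 at chr3:107741048-107760469 (minus) and Cx3cl1 at chr8:94772009-94782427 (plus), all by the GENCODE M21 annotation. Promoter sequence from RefSeq on GRCm38.p6 was found for 7 of the 9 genes. The stretch from 250 to 29 bases before the RefSeq start follows, 5′ to 3′ on the strand of the gene. It is given for 4 genes that had their highest wild type level in oxidative muscle and for Cx3cl1, which had its lowest there. The RefSeq starts of Cxcl1, Cxcl2 and Cx3cl1 lie downstream of the GENCODE starts above. For Cx3cl1 most of the printed stretch thus lies inside the GENCODE gene, which begins at 94772009. Capitals mark matches to 3 motifs searched on both strands.
Cxcl1 (chr5:90890995-90891216, plus strand): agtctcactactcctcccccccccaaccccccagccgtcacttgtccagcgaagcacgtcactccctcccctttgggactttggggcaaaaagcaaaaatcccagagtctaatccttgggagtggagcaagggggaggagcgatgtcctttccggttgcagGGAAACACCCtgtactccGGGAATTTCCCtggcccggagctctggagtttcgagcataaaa
Cxcl2 (chr5:90903649-90903870, plus strand): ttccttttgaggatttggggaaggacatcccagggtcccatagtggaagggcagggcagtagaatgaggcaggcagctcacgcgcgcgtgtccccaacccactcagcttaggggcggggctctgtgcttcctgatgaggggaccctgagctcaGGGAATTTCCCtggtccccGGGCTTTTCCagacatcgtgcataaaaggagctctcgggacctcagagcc
Cxcl10 (chr5:92348918-92349139, minus strand): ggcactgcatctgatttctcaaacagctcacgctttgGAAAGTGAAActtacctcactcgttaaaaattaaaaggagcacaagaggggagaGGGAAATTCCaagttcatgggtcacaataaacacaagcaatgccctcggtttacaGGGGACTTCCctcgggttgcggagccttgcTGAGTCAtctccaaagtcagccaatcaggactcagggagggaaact
Il6 (chr5:30012864-30013085, plus strand): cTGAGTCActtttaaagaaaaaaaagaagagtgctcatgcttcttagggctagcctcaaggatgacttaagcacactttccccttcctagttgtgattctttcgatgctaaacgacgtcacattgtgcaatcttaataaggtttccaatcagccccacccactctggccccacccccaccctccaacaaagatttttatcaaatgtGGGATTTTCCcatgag
Cx3cl1 (chr8:94771930-94772151, plus strand): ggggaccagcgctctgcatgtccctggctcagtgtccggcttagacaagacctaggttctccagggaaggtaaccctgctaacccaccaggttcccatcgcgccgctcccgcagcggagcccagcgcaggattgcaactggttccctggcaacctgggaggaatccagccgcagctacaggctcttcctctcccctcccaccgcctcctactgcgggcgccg

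The NF-kB motif was spelled as GGG, any 3 letters and then TTCC. It stood within 250 bases before the RefSeq start in 5 of the 7 genes (Cxcl1, Cxcl2, Cxcl10, Il6 and Csf1). The same motif was present in 4.6% of 27025 promoters of the same length. Cxcl1 and Cxcl2 each held 2 separate stretches of it, and in both genes 1 of these was the same run of 11 letters, GGGAATTTCCC, in which the motif matches both strands with overlap. These stretches began 89 and 71 bases before the start of Cxcl1 and 97 and 78 bases before that of Cxcl2. Cxcl10 had 2 matches, the farther 159 bases from the start, and Il6 had 1 at 44 bases. The AP-1 motif TGANTCA was present in Cxcl10, Il6 and Lif (3 of 7 genes, against 6.87% of promoters), and the interferon response motif, TTTC, any 2 letters and then TTTC, in Cxcl10 (1 of 7, against 3.04%). The match of Lif lies before the start of its transcript Lif-202, which held no counts in any group. All Lif counts lay in Lif-201, which starts farther downstream, so this match does not describe the promoter of the Lif RNA measured here. The ATF4-C/EBP motif TGATGNAA (3.53% of promoters) and the STAT motif TTCNNNGAA (7.18%) had no match in the 7 windows, and matches of different motifs did not overlap. A match describes letters only, and no binding was measured.

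Atf4 itself was checked before the other genes. Its level in CPM, the gene's counts scaled to a common library size with TMM factors, ran from 243 to 281 in glycolytic wild type and from 535 to 589 in oxidative wild type, and from 5.79 to 8.44 and 7.97 to 8.70 in the glycolytic and oxidative ECKO libraries. The ECKO libraries thus lay far below every wild type library, as labelled. Library totals ran from 8013223 to 21720127 estimated counts. Endothelial marker genes (10) summed to 9187 to 9556 CPM in glycolytic wild type, 8253 to 8602 in oxidative wild type, 7722 to 7822 in glycolytic ECKO and 8736 to 9045 in oxidative ECKO. In glycolytic ECKO 7 of the 10 fell and none rose.

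The libraries differed in RNA that comes from the sex of the mice and from other cells, and these values stand beside all results below. All wild type libraries carried Y-linked RNA. In glycolytic ECKO libraries the 4 Y-linked genes summed to 0.627% to 1.62% of the wild type level, so genotype and sex cannot be told apart in glycolytic muscle. Oxidative ECKO libraries 1, 2 and 3 held 56.6%, 57.5% and 28.2% of the wild type level, and libraries 4 and 5 held 0.817% and 0.961%. Xist, an RNA of female cells, read 18.6, 18, 43.8, 81.5 and 76.2 CPM in libraries 1 to 5. In oxidative wild type it reached at most 0.274 CPM. No oxidative ECKO library thus matched the wild type in these RNAs, and genotype and sex cannot be told apart in oxidative muscle either. Macrophage markers (12 genes) summed to 31.8 to 36.3 CPM in glycolytic wild type, 279 to 365 in oxidative wild type, 20.0 to 22.2 in glycolytic ECKO and 46.6 to 97.7 in oxidative ECKO, with the lowest values in oxidative ECKO libraries 5 and 4. The neutrophil markers (6 genes) summed to at most 2.10 CPM in any library, with Retnlg at 0 throughout both ECKO groups and Mmp9 at 0 in glycolytic ECKO.

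**Figure D1:**
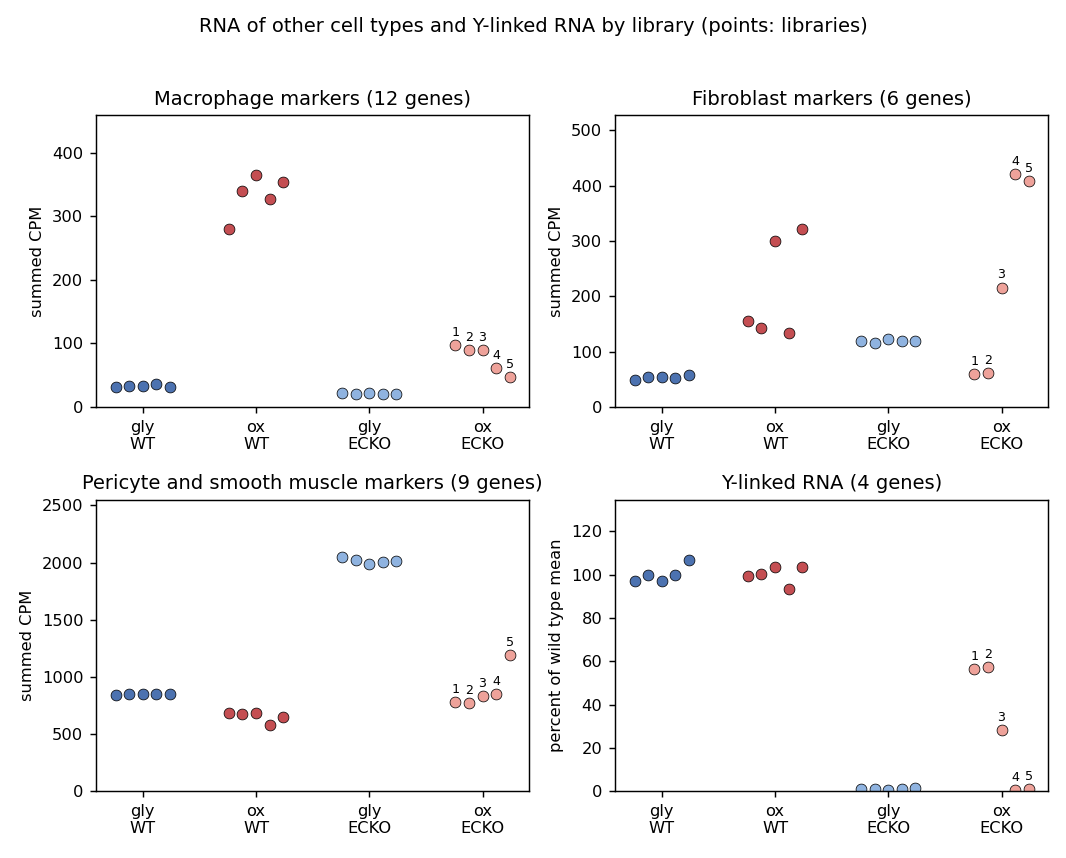
Summed CPM of macrophage, fibroblast, and pericyte and smooth muscle markers, and Y-linked RNA as percent of the wild type mean of the same muscle, on the y axes, by group (gly glycolytic, ox oxidative, WT wild type); points are libraries, and numbers are the replicates of oxidative ECKO. Macrophage markers ran from 279 to 365 CPM in oxidative wild type and did not exceed 97.7 CPM elsewhere, and oxidative ECKO libraries 4 and 5 had little Y-linked RNA and the highest fibroblast sums.

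In wild type muscle, 6 of the 9 genes were higher in libraries of the oxidative soleus than in those of the glycolytic EDL, 5 of them by more than 5-fold. Cxcl1 rose 6.83-fold, Cxcl2 6.89-fold, Ccl2 6.26-fold, Il6 5.51-fold and Ccl7 12-fold, while Cxcl10 rose 1.66-fold. Cx3cl1 went the other way, 1.40-fold higher in glycolytic muscle, and Csf1 showed no difference that passed the test. Of 13971 genes tested, 32.4% were called at an adjusted p below 0.05 in edgeR's quasi-likelihood test (16.4% higher and 15.9% lower in oxidative muscle), beside 7 of the 8 members tested. Their median log2 fold change was 2.55, against -0.00 over all genes tested. The libraries of the 2 muscles did not overlap for 7 members, against 23.1% of all genes. Lif failed the low-count filter, and Ccl7 passed it only on its oxidative libraries, so these counts describe the genes that passed and not all members. Fewer cells of a type and less RNA per cell cannot be told apart in such bulk samples.

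In oxidative muscle most of this group was lower in ECKO than in wild type: Il6 fell 9.72-fold, Cxcl1 5.16-fold, Ccl7 4.21-fold, Cxcl2 3.35-fold and Cxcl10 2.03-fold. Cx3cl1 rose 1.27-fold, and Ccl2 and Csf1 did not pass the test. In glycolytic muscle Ccl2 (2.91-fold higher) and Csf1 (1.5-fold higher) passed and the other 6 did not. All genes called made up 32% in oxidative muscle (14.6% higher, 17.4% lower in ECKO) and 29% in glycolytic muscle (13.9% and 15.1%), beside 6 and 2 members called. The members' median log2 fold change was -1.38 in oxidative muscle (all genes 0.02) and -0.09 in glycolytic muscle (all genes 0.00). The libraries did not overlap in CPM for 5 and 4 members, against 20.2% and 22.4% of all genes. Among the 4 in glycolytic muscle, Cxcl10 and Cx3cl1 were not called. Between the muscles of ECKO mice 5 members were called, with 4 higher in oxidative muscle and Csf1 lower, beside 18.4% of all genes (8.31% and 10.1%). Their median was 0.27 (all genes -0.00), and 3 members did not overlap, against 13.2%.

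**Figure D2:**
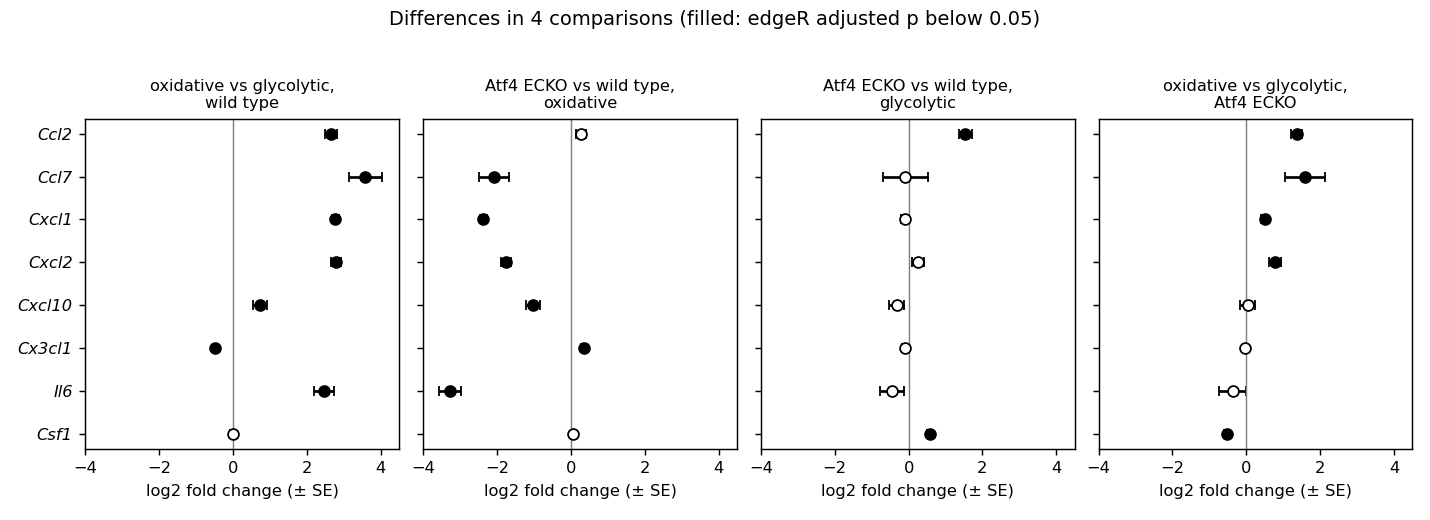
Log2 fold change (x axis) of 8 genes in 4 comparisons, the group named first against the second; points are edgeR estimates with bars of 1 SE, n = 5 libraries per group, and filled points have an adjusted p below 0.05. Cxcl1, Cxcl2, Ccl7 and Il6 stand to the right of 0 between the wild type muscles and to the left of 0 for ECKO in oxidative muscle, while Ccl2 and Csf1 stand to the right for ECKO in glycolytic muscle.

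Whether the difference between ECKO and wild type was the same in both muscles was tested as an interaction, the log2 fold change in oxidative minus that in glycolytic muscle. Since the Y-linked RNA of the ECKO libraries also differs between the muscles, sex and genotype cannot be told apart in it. It passed for 6 members: Il6 (-2.83 ± 0.46, SE), Cxcl1 (-2.28 ± 0.14), Cxcl2 (-2.01 ± 0.21), Ccl2 (-1.28 ± 0.22), Csf1 (-0.52 ± 0.11) and Cx3cl1 (0.45 ± 0.09). Of all genes 22.6% passed (10.1% above and 12.5% below 0), and the medians were -1.63 for the members and 0.01 for all genes. For Ccl7 (-1.99 ± 0.77, adjusted p = 0.063) and Cxcl10 (-0.70 ± 0.29, adjusted p = 0.080) the difference between the muscles did not pass. That of Ccl7 passed without glycolytic ECKO library 4 (-2.40, adjusted p = 0.014) or glycolytic wild type library 5 (-2.34, adjusted p = 0.037). That of Cxcl10 passed at adjusted p-values from 0.046 to 0.048 without oxidative ECKO library 5 (-0.81) or oxidative wild type library 1 or 4 (-0.80 each).

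Ccl2 is the main monocyte chemokine of vessels. Its 5 glycolytic wild type libraries read 6.67, 9.26, 8.17, 7.75 and 9.73 CPM, and the oxidative wild type libraries 46.3, 57.8, 51.1, 52.0 and 57.0 CPM. In ECKO mice it stood at 25.6, 25.2, 26.5, 24.8 and 20.3 CPM in glycolytic muscle and at 82.9, 72, 74.6, 52.1 and 37.3 CPM in oxidative muscle. Every glycolytic ECKO library thus lay above every glycolytic wild type library and below every oxidative one of either genotype, while the 2 oxidative groups overlapped. Between wild type muscles the log2 fold change was 2.65 ± 0.16 (SE, n = 5 per group, adjusted p = 8.8e-13), and for ECKO in glycolytic muscle it was 1.54 ± 0.17 (adjusted p = 9.0e-08). For ECKO in oxidative muscle it was 0.26 ± 0.14 (adjusted p = 0.15). That value turned on the libraries taken: it was 0.55 ± 0.08 (adjusted p = 9.8e-06) with oxidative ECKO libraries 1 to 3 alone and -0.26 ± 0.12 (adjusted p = 0.11) with libraries 4 and 5 alone, and 0.42 (adjusted p = 0.0021) without library 5. Within ECKO mice Ccl2 was still higher in oxidative muscle, by 1.37 ± 0.15 (adjusted p = 1.6e-07). Macrophage markers summed to 31.8 to 36.3 CPM in glycolytic and 279 to 365 CPM in oxidative wild type, and to 20.0 to 22.2 CPM in glycolytic ECKO. Pericyte and smooth muscle markers summed to 1986 to 2050 CPM in glycolytic ECKO against 844 to 855 in glycolytic wild type, and fibroblast markers to 115 to 122 against 49.1 to 57.5 CPM. Of the 9 pericyte and smooth muscle genes only 2 rose there and 1 fell (median log2 fold change 0.006), and of the 6 fibroblast genes 3 rose. The part of any of these cells in the Ccl2 differences was not tested. The gene Gm17268 lies antisense to Ccl2 and reached at most 0.0705 CPM.

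Ccl7, which codes for a second ligand of CCR2, was scarce outside oxidative wild type. Its libraries there read 2.61, 5.37, 4.68, 4.90 and 3.84 CPM, and in oxidative ECKO 1.06, 0.946, 1.15, 1.02 and 0.869 CPM, without overlap. Glycolytic libraries held 0 to 0.625 CPM in wild type and 0 to 1.02 CPM in ECKO, 30 and 17 counts in all. Ccl7 rose by 3.58 ± 0.45 on the log2 scale between the wild type muscles (adjusted p = 5.4e-07) and fell by 2.07 ± 0.40 in oxidative ECKO (adjusted p = 0.00022). In glycolytic ECKO the log2 fold change was -0.09 ± 0.61 (adjusted p = 0.93), a wide error that comes with so few counts. Between the ECKO muscles it was 1.60 ± 0.55 (adjusted p = 0.042), and this call was lost with oxidative ECKO libraries 1 to 3 alone (adjusted p = 0.055) and 4 and 5 alone (adjusted p = 0.16). It was also lost without any 1 of oxidative ECKO libraries 1, 2, 3 and 4 or glycolytic ECKO libraries 1, 2, 4 and 5, at adjusted p-values from 0.0559 to 0.123. In TPM, a scale that also divides by transcript length, the median ratio of Ccl2 to Ccl7 was 10.3 in oxidative wild type and 61.7 in oxidative ECKO.

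**Figure D3:**
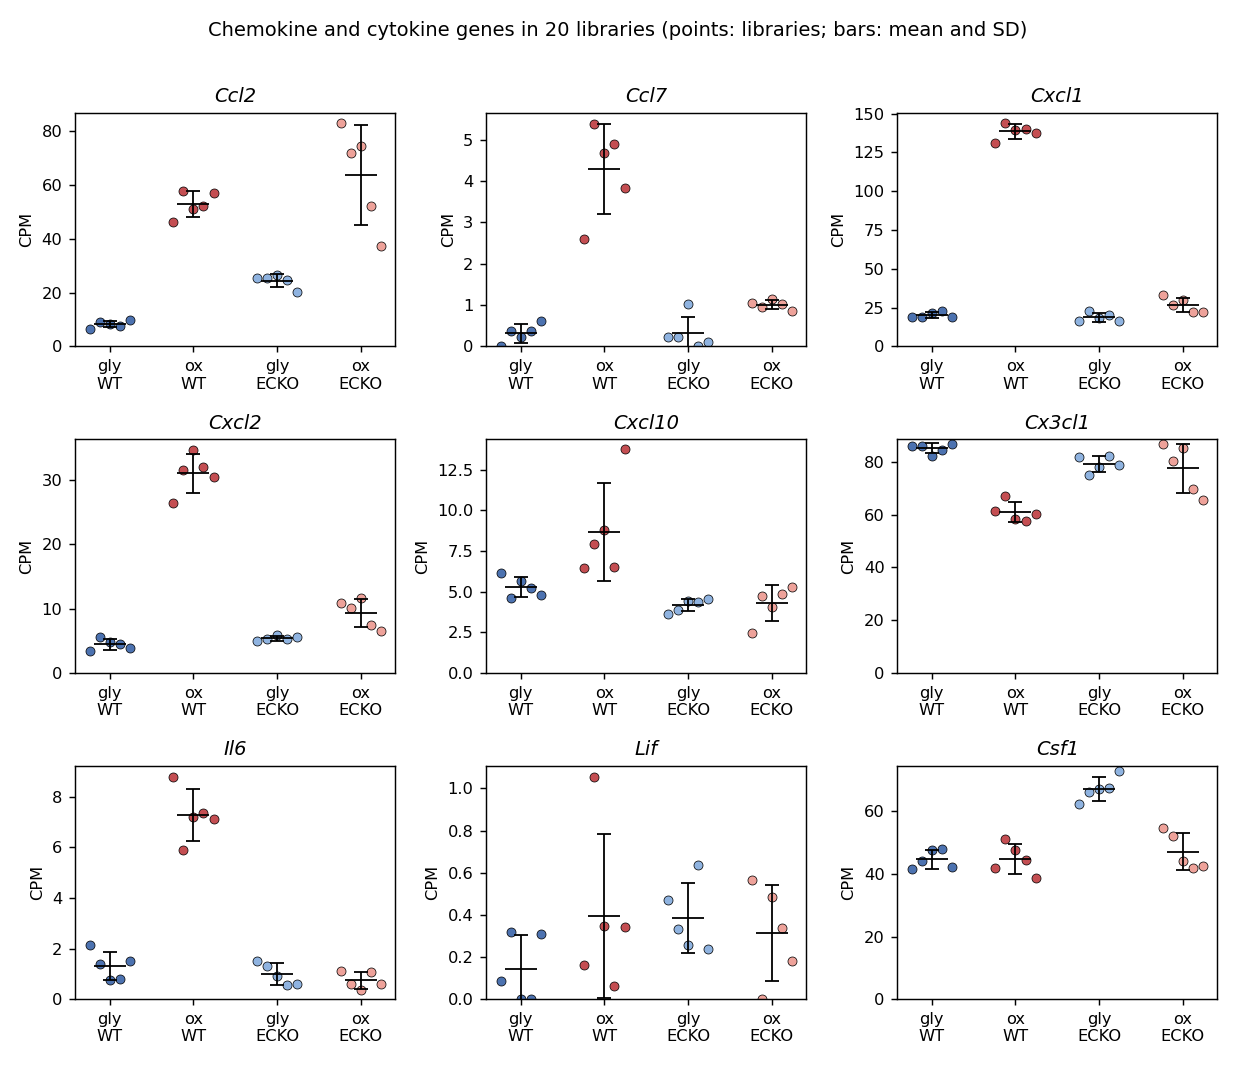
CPM (y axis) of each of the 9 genes by group (gly glycolytic, ox oxidative, WT wild type), n = 5 libraries per group; points are libraries, and the bars give the mean and SD. Cxcl1, Cxcl2, Ccl7 and Il6 are high in oxidative wild type alone, Ccl2 is high in both oxidative groups, and Csf1 is highest in glycolytic ECKO.

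Cxcl1 codes for a neutrophil chemokine and was the most abundant of the 9 RNAs per length in oxidative wild type, at a mean of 185 TPM. In CPM its oxidative wild type libraries read 131, 144, 140, 140 and 138, a narrow spread around 139 ± 4.71 (SD, n = 5). The other groups lay far lower: 18.7 to 23.1 CPM in glycolytic wild type, 16.2 to 23.1 in glycolytic ECKO and 32.9, 26.9, 29.7, 22.5 and 22.5 in oxidative ECKO. No library of these 3 groups came near the oxidative wild type range. Cxcl1 rose by 2.77 ± 0.09 (log2, SE) between the wild type muscles (adjusted p = 5.7e-18) and fell by 2.37 ± 0.09 in oxidative ECKO (adjusted p = 3.5e-17), against -0.09 ± 0.10 in glycolytic ECKO (adjusted p = 0.55). A smaller muscle difference in ECKO mice, 0.50 ± 0.10 (adjusted p = 0.00098), was 0.67 ± 0.09 with oxidative ECKO libraries 1 to 3 alone and did not pass with libraries 4 and 5 alone (0.24 ± 0.10, adjusted p = 0.14).

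Cxcl2, a neighbour of Cxcl1 and a ligand of the same receptor, was likewise highest in oxidative wild type. It read 26.5, 31.5, 34.7, 32.0 and 30.4 CPM in oxidative wild type and 10.8, 10.2, 11.6, 7.37 and 6.54 CPM in oxidative ECKO. Glycolytic libraries held 3.38 to 5.52 CPM in wild type and 4.92 to 5.96 CPM in ECKO. In CPM oxidative ECKO thus lay between oxidative wild type and both glycolytic groups without overlap, while in TPM it ran from 8.43 to 20.4 and overlapped both glycolytic ECKO (9.47 to 12.2) and glycolytic wild type (4.20 to 10.4). The log2 fold change was 2.78 ± 0.14 between the wild type muscles (adjusted p = 2.3e-14), -1.75 ± 0.13 for ECKO in oxidative muscle (adjusted p = 6.9e-11) and 0.27 ± 0.16 for ECKO in glycolytic muscle (adjusted p = 0.24). In ECKO mice the muscle difference of 0.77 ± 0.15 (adjusted p = 0.00065) rested on libraries 1 to 3 (1.03 ± 0.14 with these alone). With libraries 4 and 5 alone it was 0.35 ± 0.16 (adjusted p = 0.17). Its level is less certain, since the counts of Cxcl2 were whole in 13 of 20 libraries (within 0.05), where those of Cxcl1 were whole in all 20, so part of the Cxcl2 reads had been divided between genes.

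Ccl2 and Cxcl1 parted in the ECKO mice. In wild type the TPM ratio of Ccl2 to Cxcl1 was nearly the same in both muscles, from 0.424 to 0.660 in glycolytic (median 0.484) and from 0.436 to 0.512 in oxidative libraries (median 0.459), although both RNAs were several times higher in the latter. In ECKO the ratio ran from 1.38 to 1.95 in glycolytic muscle (median 1.64) and from 2.19 to 3.50 in oxidative muscle (median 3.23). Every ECKO library thus had more Ccl2 than Cxcl1 per length, and every wild type library had less. The median ratio of Cxcl1 to Cxcl2 moved less, from 4.40 and 4.55 in glycolytic and oxidative wild type to 2.80 and 3.25 in ECKO.

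**Figure D4:**
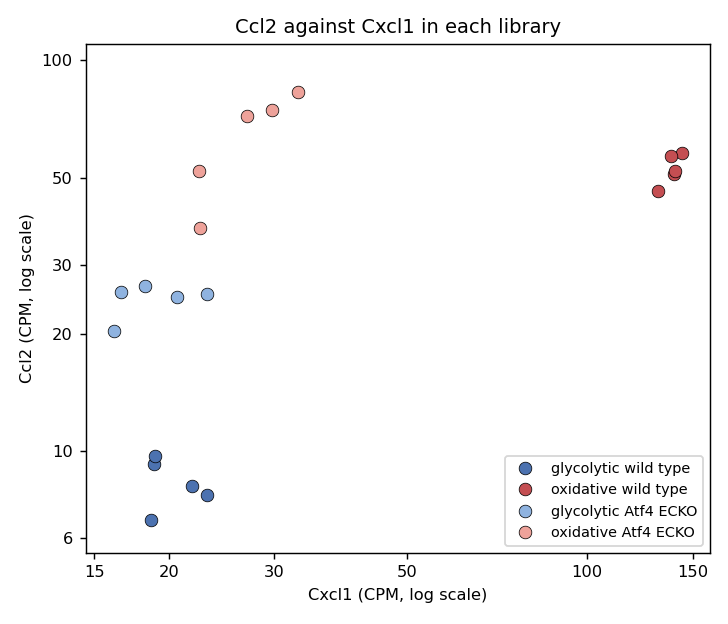
Ccl2 (y axis) against Cxcl1 (x axis) in CPM on log axes, 1 point per library, coloured by group, n = 5 each. In wild type both genes are higher in oxidative muscle, while oxidative ECKO libraries have Ccl2 at 37.3 to 82.9 CPM with Cxcl1 at no more than 32.9 CPM.

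Cxcl10, the interferon-responsive chemokine, had the smallest rise of the 5 chemokines that rose between the wild type muscles. Oxidative wild type libraries read 6.44, 7.90, 8.80, 6.53 and 13.8 CPM, and glycolytic wild type libraries 4.61 to 6.13 CPM. The ECKO libraries held 2.47, 4.73, 4.06, 4.83 and 5.30 CPM in oxidative muscle and 3.63 to 4.52 CPM in glycolytic muscle. Its log2 fold change was 0.73 ± 0.19 between the wild type muscles (adjusted p = 0.0039), -1.02 ± 0.20 for ECKO in oxidative muscle (adjusted p = 0.00018) and -0.32 ± 0.21 for ECKO in glycolytic muscle (adjusted p = 0.26). In TPM the 2 wild type groups overlapped. Art3 lies on the opposite strand across Cxcl10 at 43.4 to 103 CPM, and since the sources used here do not say whether the quantification used strand, all Cxcl10 values are uncertain.

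Cx3cl1, the membrane-bound fractalkine, was the most abundant of the 9 RNAs per length in glycolytic wild type (36.6 TPM) and was lowest in oxidative wild type. Its CPM ran from 82.2 to 86.9 in glycolytic and from 57.7 to 67.1 in oxidative wild type, without overlap. In ECKO it stood at 74.9 to 82.1 in glycolytic muscle and at 86.7, 80.1, 85.2, 69.6 and 65.7 in oxidative muscle. The gap between the muscles was thus present in wild type (-0.49 ± 0.06, adjusted p = 9.0e-07) and did not pass in ECKO (-0.03 ± 0.06, adjusted p = 0.78). In oxidative muscle Cx3cl1 rose by 0.35 ± 0.06 in ECKO (adjusted p = 0.00011), and by 0.48 ± 0.05 with libraries 1 to 3 alone. With libraries 4 and 5 alone the value was 0.15 ± 0.06 (adjusted p = 0.070), and their muscle difference in ECKO was called at -0.23 ± 0.06 (adjusted p = 0.0098). In glycolytic muscle the ECKO change was -0.10 ± 0.06 (adjusted p = 0.23). The 2 glycolytic groups did not overlap in CPM but overlapped in TPM, with means of 36.6 in wild type and 38.4 in ECKO. Adam10, 1 of the 2 proteases that release fractalkine, fell in ECKO by 0.13 in oxidative and 0.27 in glycolytic muscle on the log2 scale. Adam17, the other, fell by 0.15 in glycolytic ECKO, and neither differed between the wild type muscles by the test.

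Il6 was low everywhere except oxidative wild type. Its libraries there read 8.80, 5.90, 7.20, 7.35 and 7.13 CPM. They read 2.13, 1.41, 0.770, 0.825 and 1.51 CPM in glycolytic wild type, 1.52, 1.33, 0.937, 0.564 and 0.594 CPM in glycolytic ECKO and 1.13, 0.591, 0.364, 1.10 and 0.594 CPM in oxidative ECKO. The lowest oxidative wild type library lay above the highest library of each other group, and those 3 groups overlapped. The log2 fold change was 2.46 ± 0.27 between wild type muscles (adjusted p = 6.8e-08), -3.28 ± 0.30 for ECKO in oxidative muscle (adjusted p = 2.1e-09) and -0.45 ± 0.33 for ECKO in glycolytic muscle (adjusted p = 0.34). Between the ECKO muscles it was -0.37 ± 0.37 (adjusted p = 0.55). Among its transcripts, Il6-201 held 73.1% of 488 Il6 counts in oxidative wild type and 70.9% of 109 in glycolytic wild type, but 39.0% of 53 in oxidative ECKO and 2.22% of 49 in glycolytic ECKO, where Il6-204 held 55.9% and 74.5%. These shares rest on sums over 5 libraries and, in ECKO, on few counts that the software had divided between transcripts.

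Lif, the other gp130 cytokine of the set, lay below the low-count filter, with 14 to 24 counts summed over the 5 libraries of a group. The highest library of each group held 0.319 CPM (glycolytic wild type), 1.05 (oxidative wild type), 0.635 (glycolytic ECKO) and 0.566 (oxidative ECKO), and the lowest held 0, 0.0628, 0.238 and 0. All groups overlapped. By a 2-sided exact permutation test on log2(CPM + 0.5) with all ways of assigning 10 libraries to 2 groups, the difference was 0.42 between the wild type muscles (p = 0.214), -0.09 for ECKO in oxidative muscle (p = 0.802), 0.48 for ECKO in glycolytic muscle (p = 0.0635) and -0.15 between the ECKO muscles (p = 0.540). Adjusted over these 4 tests, the lowest exact permutation p was 0.254. A change in Lif was not detectable at this depth.

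Csf1, the macrophage growth factor, was the other member, beside Ccl2, that was called in glycolytic ECKO. It stood at 41.5, 44.0, 47.5, 47.9 and 42.1 CPM in glycolytic wild type and at 62.1, 66.1, 67.0, 67.4 and 72.6 CPM in glycolytic ECKO. Oxidative libraries held 38.7 to 51.0 CPM in wild type and 41.9 to 54.7 CPM in ECKO. In CPM the glycolytic ECKO libraries stood above all others, and the remaining 3 groups overlapped. In TPM the glycolytic ECKO libraries also stood highest (28.1 to 34.6). There, however, oxidative ECKO (20.5 to 24.1) lay above oxidative wild type (16.3 to 19.0) without overlap. Csf1 rose by 0.59 ± 0.08 (log2) in glycolytic ECKO (adjusted p = 1.3e-06), and the values were 0.07 ± 0.08 in oxidative ECKO (adjusted p = 0.53) and -0.00 ± 0.08 between wild type muscles (adjusted p = 1.0). In ECKO mice it was lower in oxidative than in glycolytic muscle by 0.52 ± 0.08 (adjusted p = 2.0e-05). In the same glycolytic ECKO libraries the sums of pericyte and smooth muscle markers (1986 to 2050 against 844 to 855 CPM in wild type), fibroblast markers (115 to 122 against 49.1 to 57.5) and muscle fibre markers (107 to 116 against 41.6 to 44.5) were all higher. By gene, only 2 of 9 pericyte and smooth muscle markers rose and 1 fell, while 3 of 6 fibroblast and 5 of 8 muscle fibre markers rose. The part of these cells in the Csf1 difference was not tested. Of its 3 main transcripts, Csf1-202 held 46.4% to 53.8%, Csf1-201 29.1% to 34.5% and Csf1-203 14.2% to 19.4% of the counts summed by group. Single libraries spread more widely, with Csf1-202 from 39.0% to 70.8% and Csf1-201 from 0% to 45.1% in oxidative wild type.

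The transcripts of Cxcl1 were divided differently in oxidative wild type. Cxcl1-202, annotated as retaining an intron, held 2.85% of the Cxcl1 counts in oxidative wild type (2.48% to 3.27% by library), against 9.01% in glycolytic wild type, 8.73% in glycolytic ECKO and 9.70% in oxidative ECKO, where no library held less than 4.86%. The rest lay in the coding transcript Cxcl1-201. For Cxcl2, Cxcl2-201, which is 1 of 2 coding transcripts, held 87.0% in oxidative wild type and 76.4% to 81.1% in the other groups. By library its share ran from 84.9% to 89.4% in oxidative wild type and from 72.7% to 82.7% in oxidative ECKO. Both glycolytic groups overlapped oxidative wild type, at 55.4% to 90.5% in wild type and 74.5% to 89.0% in ECKO. Cx3cl1-201 held 98.6% to 99.4% of the Cx3cl1 counts in every group. These shares are the authors' estimates and were not tested.

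**Figure D5:**
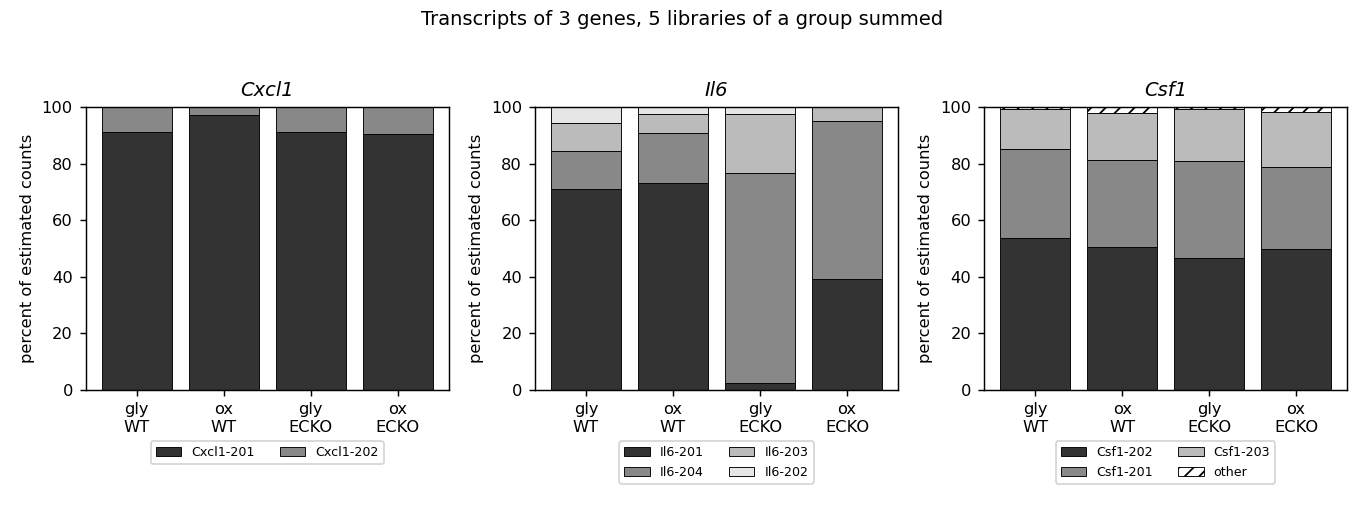
Share of each gene's estimated counts (y axis, percent) in its transcripts for Cxcl1, Il6 and Csf1, by group (gly glycolytic, ox oxidative, WT wild type), with the 5 libraries of a group summed. The share of Cxcl1-202 is 2.85% in oxidative wild type and 8.73% to 9.70% in the other groups, and Il6-201 has its smallest share in glycolytic ECKO.

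Per length, the order of the 9 RNAs changed with muscle and genotype. In oxidative wild type Cxcl1 was followed by Ccl2 (87.3 TPM), Cxcl2 (41.2), Cx3cl1 (24.6), Csf1 (17.9) and Cxcl10 (10.1). In glycolytic wild type Cx3cl1 was followed by Cxcl1 (30.7 TPM), Csf1 (19.4) and Ccl2 (16.1). Ccl2 came first in both ECKO groups, with 129 TPM in oxidative and 50.9 TPM in glycolytic muscle. Lif was last in every group, at 0.0487 to 0.142 TPM.

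Other ligands of the same families were counted over lists of genes. Of 19 other CC and C chemokines, 9 were tested. Between the wild type muscles 5 rose and none fell, among them Ccl6 (21.3 against 0.0556 CPM), Ccl9 (14.8 against 0.514 CPM) and Ccl3 (1.79 against 0.0733 CPM), which myeloid cells make, and in oxidative ECKO 4 fell and none rose, including these 3. Ccl6 and Ccl3 passed the low-count filter through oxidative wild type alone, so for them these were the directions a call could take, and the counts of the list give no support. In glycolytic ECKO 3 rose, among them Ccl11 (1.14 to 2.66 CPM) and Ccl21a (82.3 to 126 CPM, uncertain because of near-identical copies). Of 11 other CXC chemokines 8 were tested, and Cxcl5 and Cxcl3, which act on CXCR2 as CXCL1 and CXCL2 do, rose by 3.39 ± 0.33 and 4.27 ± 0.58 on the log2 scale in oxidative wild type. They fell by 2.92 ± 0.33 and 2.62 ± 0.51 in oxidative ECKO, but Cxcl3 passed the low-count filter through oxidative wild type alone, so its direction was fixed by the filter. In all, 5 of this list rose and 2 fell between wild type muscles, 4 fell in oxidative ECKO, and 1 rose and 1 fell in glycolytic ECKO. Cxcl12, which keeps blood progenitors in place, fell from 2217 ± 186 to 1711 ± 360 CPM (SD, n = 5) in oxidative ECKO.

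Among 18 other cytokines and colony-stimulating factors, 11 were tested: 6 rose and 2 fell between the wild type muscles, 5 fell in oxidative ECKO, and 2 rose and 3 fell in glycolytic ECKO. Csf3, the granulocyte colony-stimulating factor, stood at 6.96 CPM in oxidative against 0.421 CPM in glycolytic wild type and fell by 3.85 ± 0.43 (log2) in oxidative ECKO, to 0.480 CPM. It passed the low-count filter through oxidative wild type alone, which fixed these directions. Tnf rose from 8.80 to 19.2 CPM between the wild type muscles and fell in both ECKO groups, by 1.34 ± 0.16 in oxidative and 1.08 ± 0.18 in glycolytic muscle. Clcf1, a further gp130 cytokine, rose by 1.06 ± 0.16 between the wild type muscles. In ECKO it fell by 0.79 ± 0.16 in oxidative muscle and rose by 1.17 ± 0.16 in glycolytic muscle.

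Of 12 chemokine receptors 5 were tested, with 2 higher and 1 lower between wild type muscles. In oxidative ECKO 2 were higher and 2 lower, and in glycolytic ECKO 1 was higher and 1 lower. Ccr1, 1 of the 5, passed the low-count filter through oxidative wild type alone, which fixed its direction in the comparisons with that group. Ackr1, which binds chemokines on venules without signalling, fell in all 4 comparisons, from 128 CPM in glycolytic wild type to 76.1 in oxidative wild type, 57.2 in glycolytic ECKO and 32.1 in oxidative ECKO. Ackr3, a scavenger of CXCL12, rose in both ECKO groups, by 0.30 ± 0.11 in oxidative and 0.64 ± 0.11 in glycolytic muscle. Of 9 cytokine receptors, all tested, 5 fell and 2 rose between the wild type muscles, 4 fell and 2 rose in oxidative ECKO and 4 fell in glycolytic ECKO. Receptor chains of IL-6 and LIF differed in direction between the wild type muscles. Il6st stood at 306 CPM in oxidative against 433 CPM in glycolytic muscle, and Lifr was lower in oxidative muscle by 0.83 ± 0.08 on the log2 scale. Il6ra, the chain that binds IL-6 itself and named here after its values were seen, was higher there, at 7.36 against 4.68 CPM (0.66 ± 0.17, adjusted p = 0.0041), and fell by 0.46 ± 0.17 in oxidative ECKO (adjusted p = 0.041). Csf1r, which macrophages express, stood at 5.84 CPM in oxidative wild type and at 1.32 CPM or less in the other groups.

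Genes of the NF-kB system moved in both directions. Of 15, all tested, 6 rose and 2 fell between the wild type muscles, 5 rose and 3 fell in oxidative ECKO, and 5 rose and 2 fell in glycolytic ECKO. Nfkbiz, which codes for the nuclear cofactor IkappaB-zeta, stood at 81.6 ± 2.53 CPM in oxidative wild type against 21.7 ± 3.36 in glycolytic wild type (SD, n = 5), and fell by 1.59 ± 0.08 (log2) in oxidative ECKO. The subunit gene Nfkb2 rose in both ECKO groups (0.51 and 0.57), and Tnfaip3, an inhibitor of the pathway, rose in oxidative wild type (0.56 ± 0.09) and in glycolytic ECKO (0.65 ± 0.09). Of 7 genes for factors that bind and destroy cytokine RNA, 3 rose and none fell between the wild type muscles. In ECKO 3 fell in oxidative and 4 in glycolytic muscle. Zfp36 went from 239 to 525 CPM between the wild type muscles and to 237 and 161 CPM in oxidative and glycolytic ECKO.

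Genes of the STAT3 and interferon pathways were counted because gp130 signals to STAT3 and Cxcl10 responds to interferon. The STAT3 list also holds Jak1, Jak2 and Stat3 itself, so its counts are not of targets alone. Of 8 genes of the STAT3 arm, 4 rose and 3 fell between the wild type muscles, 3 rose and 3 fell in oxidative ECKO and 1 rose and 4 fell in glycolytic ECKO. Socs3, a feedback inhibitor that STAT3 induces, rose from 56.6 to 235 CPM between the wild type muscles and fell by 1.47 ± 0.09 (log2) in oxidative ECKO, and Pim1 rose by 1.47 and fell by 1.01 in the same comparisons. Lrg1, another target, went the other way, with -1.62 ± 0.12 and 0.49 ± 0.12. Of 12 genes of the interferon arm, 10 rose and 1 fell in oxidative ECKO, where Cxcl10 fell. Ifit2 rose there from 62.7 to 103 CPM and Usp18 from 39.2 to 60.2 CPM. Between the wild type muscles 2 rose and 5 fell, in glycolytic ECKO 3 rose and 3 fell, and between the ECKO muscles 11 rose.

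The genes whose CPM followed each member most closely over the 20 libraries were listed by Pearson's r of log2 CPM among 10054 protein-coding genes. The 20 points form 4 groups and share depth and cell makeup, so r mainly reflects the group means. Ccl2 was closest to Pgf (0.964), the placental growth factor gene, which stood at 158, 591, 330 and 509 CPM in glycolytic wild type, oxidative wild type, glycolytic ECKO and oxidative ECKO. Cxcl1 was closest to Nfkbiz (0.983), Ppp1r15a (0.981) and the myeloid chemokine gene Ccl6 (0.981), Cxcl2 to Gpnmb (0.975) and Ier3 (0.973), and Ccl7 to the leukocyte genes Ms4a6d (0.921) and Cd53 (0.918). Il6 was closest to Nup62 (0.940), Cxcl10 to Pycard (0.886), Csf1 to Dstn (0.920) and Cx3cl1 to Tubb5 (0.932).

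Markers of other cells moved with some of these differences. Macrophage markers rose in 11 of 12 genes between the wild type muscles and fell in 12 of 12 in oxidative ECKO and in 3 of 12 in glycolytic ECKO, with Lyz2 at 185, 9.54, 47.3 and 8.47 CPM in oxidative wild type, glycolytic wild type, oxidative ECKO and glycolytic ECKO. Of these 12 markers, C1qa, C1qc, Adgre1, Mrc1 and Ptprc passed the low-count filter through oxidative wild type alone. Between the wild type muscles this is the direction of Cxcl1, Cxcl2, Ccl2, Ccl7, Cxcl10 and Il6, and in oxidative ECKO that of the same genes without Ccl2. The part of macrophage RNA in these differences was not tested. Fibroblast markers rose in 6 of 6 genes between the wild type muscles and 3 of 6 rose in glycolytic ECKO, where they summed to 115 to 122 CPM against 49.1 to 57.5 in glycolytic wild type. None was called in oxidative ECKO. Their sums there were 60.2, 61.7, 216, 421 and 408 CPM in libraries 1 to 5, against 134 to 323 in oxidative wild type, and none of the 6 is at 0 in a group. Pericyte and smooth muscle markers fell in 4 of 9 genes between the wild type muscles, rose in 5 in oxidative ECKO, and rose in 2 and fell in 1 in glycolytic ECKO. Muscle fibre markers rose in 8 of 8 genes between the wild type muscles, in 6 in oxidative ECKO and in 5 in glycolytic ECKO. Myh7, 1 of these markers, passed the low-count filter through oxidative ECKO alone, so a call of it there could only be a rise. The sums of muscle fibre markers ran from 41.6 to 44.5 CPM in glycolytic wild type and 85.1 to 181 in oxidative wild type. They ran from 107 to 116 in glycolytic ECKO and 173 to 238 in oxidative ECKO. The part of these cells in the members' differences was not tested. Oxidative ECKO libraries 1 to 3 carried Y-linked RNA, though below the wild type level, and had higher macrophage marker sums than libraries 4 and 5 (88.9 to 97.7 against 46.6 to 61.5 CPM). Libraries 1 to 3 read higher for Ccl2 (72 to 82.9 against 37.3 to 52.1 CPM), Cxcl1 (26.9 to 32.9 against 22.5) and Cxcl2 (10.2 to 11.6 against 6.54 to 7.37). The same held for Cx3cl1 (80.1 to 86.7 against 65.7 to 69.6) and Csf1 (44.0 to 54.7 against 41.9 to 42.5). Cxcl10 was lower in libraries 1 to 3 (2.47 to 4.73 against 4.83 to 5.30), and Ccl7, Il6 and Lif overlapped. How many of all genes part these libraries in the same way was not counted, so the ranges only describe the members. The falls of Cxcl1, Cxcl2, Ccl7, Cxcl10 and Il6 in oxidative ECKO passed with either set alone, at log2 values of -2.20 and -2.62 for Cxcl1, -1.49 and -2.17 for Cxcl2, -1.99 and -2.19 for Ccl7, -1.23 and -0.78 for Cxcl10, and -3.36 and -3.17 for Il6 (libraries 1 to 3 and 4 to 5, each against the 5 oxidative wild type libraries). Neither set matched the wild type in Y-linked RNA, so passing in both cannot tell genotype from sex.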

How the data were processed

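RNA of sorted muscle endothelial cells was sequenced in 20 libraries, and for each library the authors deposited the estimated counts (expected counts) and TPM of every transcript. The submitters' processing notes name kallisto and DESeq2, without versions, and the human build GRCh38.p13, while the identifiers are mouse. Per the labels' protocols a stranded poly(A) kit was used. Of 129439 transcripts per table, 128643 were found in GENCODE M21 (GRCm38), and the others held no more than 0.221% of the counts of any library. Estimated counts were summed per gene and rounded. The deposited TPM values were summed per gene and used for levels between genes and for ratios. edgeR 4.0.16 in R 4.3.3 fitted all 20 libraries with TMM factors and filterByExpr by its quasi-likelihood test, with Benjamini-Hochberg adjustment over 13971 genes. An adjusted p below 0.05 was a call, and the SE is the log2 fold change over the square root of F. Totals of at least 8013223 counts limit precision for genes under 1 CPM. The test was checked on simulated counts with the same spread for every gene and changes only in well-counted genes. That check does not cover genes of few counts, such as Ccl7 and, in ECKO, Il6. Lif was compared by exact permutation with SciPy 1.17.1. Samples with the same replicate number deviated from their group means with correlations between -0.06 and 0.10, so the numbers were not taken as pairs. Alternatives were RLE factors, no filter, DESeq2 1.42.0, the compared groups alone, a replicate block, deposited TPM, oxidative ECKO libraries split by Y-linked RNA and leaving out each library. The members, lists and tests were chosen with earlier results of these data known. From each list the text could name up to 5 tested genes per comparison with the smallest adjusted p, and for each member the 3 most alike genes of at least 4 CPM, of which part is given.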

Additional observations from a re-analysis of the deposited data

Results flagged for a closer look

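For 6 genes the difference between ECKO and wild type libraries, in which genotype and sex cannot be told apart, was unequal in oxidative and glycolytic muscle by the interaction test (log2 fold change in oxidative minus glycolytic muscle, edgeR, adjusted p below 0.05): Ccl2 (-1.28), Cxcl1 (-2.28), Cxcl2 (-2.01), Il6 (-2.83), Csf1 (-0.52) and Cx3cl1 (0.45). In 3 cases 1 library lay apart from the other 4 of its group by Dixon's criterion, which chance meets in about 1 of 20 groups. With 9 genes in 4 groups, a few such cases can come by chance. The 3 cases were Ccl2 in glycolytic ECKO, where library 5 was lowest at 20.3 CPM, Ccl7 in glycolytic ECKO, where library 3 was highest at 1.02 CPM, and Lif in oxidative wild type, where library 2 was highest at 1.05 CPM. Both Ccl7 and Lif rest on few counts there.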

How the results depend on the processing

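No direction of a value called with all 20 libraries reversed under any alternative. The value of Ccl2 for ECKO in oxidative muscle was not called with all libraries, and its sign depended on the libraries taken. It was positive and called with oxidative ECKO libraries 1 to 3 alone, and negative and not called with libraries 4 and 5 alone. The count of members called between the ECKO muscles was 5 and became 3 with oxidative ECKO libraries 4 and 5 alone, which held little Y-linked RNA. Leaving out 1 library at a time gave 7 to 7 members called between the wild type muscles, 6 to 7 for oxidative ECKO, 2 to 2 for glycolytic ECKO, 4 to 5 between the ECKO muscles and 6 to 7 for the interaction, and 4072 to 4270, 4058 to 4353, 3553 to 3861, 2161 to 2542 and 2927 to 3218 genes called. A replicate block left the members called at 7, 6, 2, 5 and 6, and no member's call changed. Single calls moved at the threshold: Ccl7 between the ECKO muscles was lost with the compared groups alone (adjusted p = 0.065), and the interaction of Ccl7 was called by DESeq2 (adjusted p = 0.015). That of Cxcl10 passed with oxidative ECKO libraries 1 to 3 alone (adjusted p = 0.032). In deposited TPM, Lif and Cx3cl1 had their highest mean in glycolytic ECKO, with overlap with the next group. Csf1 overlapped between the oxidative groups in CPM but not in TPM. The cause was not tested. Depth limits Lif, Ccl7 and, in ECKO, Il6.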
